A study of Mus musculus with 4 samples.

Results

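Among the small RNAs bound to PIWIL1 in the mouse testis, those of 29 to 31 nt that start with A, C or G and carry A at position 10 were examined. They are called non-U 10A RNAs here. The rule found 80266 distinct sequences, of 1399635 of that length and of 2517272 distinct inserts in all. Replicate 1 held 40980 of them and replicate 2 held 52581, and 13295 were seen in both. The rule used only length and the bases at positions 1 and 10, so those bases are given as a description.

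Both libraries came from testes of WT (C57BL/6J) mice aged 10 weeks. PIWIL1 was immunopurified from testis lysate, the RNA recovered was gel-purified by size, and libraries were made with a NEBNext small RNA kit. The labels do not say whether the replicates came from separate animals, so the spread between them may be technical. No control immunoprecipitation was analysed here, so no share given here is an enrichment over testis RNA.

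PIWIL1, also called MIWI, is a PIWI protein made in spermatocytes and round spermatids, and in the adult testis it carries mainly pachytene PIWI-interacting RNAs (piRNAs). Primary piRNAs are cut from long single-stranded precursors and usually begin with U. In the ping-pong cycle, a piRNA starting with U guides the cut of a complementary transcript, and the cut sets the 5′ end of a secondary piRNA. The secondary piRNA overlaps its guide at the 5′ ends and tends to carry A at position 10, opposite the first base of the guide. In the mouse this cycle is best known from the fetal germ line, while pachytene piRNAs are thought to be made largely without it.

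The 10 most abundant 5′ ends are printed first because they show what the non-U 10A RNAs look like and held a large share of their reads. Each is shown by its commonest sequence, 5′ to 3′, with T as in the files where the RNA has U. Capitals mark positions 1 and 10, the bases the rule used. A 5′ end is the first 20 nt of a sequence.
Non-U 10A 1: GactgatgtActgataagaaactcagtgt
Non-U 10A 2: CtcttctgtAgtagttgattcttcccaggc
Non-U 10A 3: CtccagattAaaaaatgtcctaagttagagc
Non-U 10A 4: GaccatttcActcagactgtaaccatgac
Non-U 10A 5: AttcaacacAcacttgttggtaacctctgg
Non-U 10A 6: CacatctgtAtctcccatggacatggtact
Non-U 10A 7: AggatcttcAtagttcatgaacaggtatgt
Non-U 10A 8: CtcaaagccAcagttggttcatgtagatgt
Non-U 10A 9: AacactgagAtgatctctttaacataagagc
Non-U 10A 10: AtacaaacaAcattaaatggactcagcagt

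Non-U 10A 1 had 6090 reads in replicate 1 and 7387 in replicate 2, or 1229 ± 85.7 reads per 1000000 insert reads (mean ± SD, n = 2, the unit used below for 5′ ends). Non-U 10A 2 was level with it, with 6036 and 7449 reads, or 1228 ± 70.7 per 1000000. These first 2 did not differ beyond their spread. Non-U 10A 3 had 4030 and 6551 reads, or 945 ± 129 per 1000000. Non-U 10A 4 had 3483 and 7110 reads, or 931 ± 274 per 1000000, the widest spread of the 10. The third and the fourth therefore did not differ beyond their spread either.

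The next 6 lay between 386 and 595 per 1000000. Non-U 10A 5 stood at 595 ± 77.2, non-U 10A 6 at 518 ± 55.8 and non-U 10A 7 at 494 ± 96.6 per 1000000. Non-U 10A 8, 9 and 10 were at 398 ± 21.8, 393 ± 128 and 386 ± 67.3 per 1000000 and overlapped one another. By first base, 4 of the 10 started with A, 4 with C and 2 with G. The third most abundant G-starting 5′ end was not among the 10, at 289 ± 21.4 per 1000000.
G-starting 3: GctcatgtcAgaactgcagagatcacatgg

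Non-U 10A RNAs were a small and steady share of the libraries. The table held 4836797 and 6408274 reads for replicates 1 and 2, of which 3351686 and 4911036 had an insert of 29 to 31 nt. Of these, 135785 and 196324 were non-U 10A RNAs. Their share was 4.05% in replicate 1, with an exact 95% interval of 4.03% to 4.07%. It was 3.998% in replicate 2, with an interval of 3.98% to 4.01%, and the mean was 4.02% ± 0.0379 (SD, n = 2). Such intervals cover counting error only, since copies made by PCR cannot be recognised here. As a share of all insert reads, non-U 10A RNAs were 2.99% ± 0.163. Without the 100 most abundant 5′ ends of each class the mean share of 29 to 31 nt reads was 2.40%. These 100 held 49.5% and 51.0% of non-U 10A reads. By contrast, 50% of reads with U at position 1 and A at position 10 took 1243 and 1054 5′ ends. A lower share therefore follows by construction.

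With each distinct sequence counted once, non-U 10A RNAs were 5.42% ± 0.104 of the sequences of 29 to 31 nt, and 77.8% ± 1.21 of their own sequences in a library had a single read. Sequences seen in both libraries nevertheless held 77.4% ± 0.703 of their reads. The same share was 70.4% ± 0.681 in RNAs of this length with neither U at position 1 nor A at position 10, called non-U non-10A RNAs below. It was 86.6% ± 0.252 in RNAs with U at position 1 and A at position 10, the U-starting 10A RNAs, and 86.1% ± 0.537 in U-starting RNAs without that A. Non-U 10A RNAs were thus shared between libraries less than U-starting RNAs and more than the other non-U RNAs, by more than the spread between replicates.

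A at position 10 was commoner in RNAs without a 5′ U. It was found in 42.5% ± 0.332 of reads starting with A, C or G and in 29.6% ± 0.222 of reads starting with U. By first base, the share was 45.2% ± 0.828 for C, 43.7% ± 1.06 for A and 38.4% ± 1.30 for G. C and A did not differ beyond their spread, and both were above G. Much of the excess came with abundant sequences: with each sequence counted once, the share was 36.3% ± 0.199 without a 5′ U and 28.8% ± 0.327 with one.

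Within the non-U 10A RNAs, A was the commonest first base, at 39.2% ± 0.738 of reads, before C at 32.5% ± 1.10 and G at 28.2% ± 0.366. Non-U non-10A RNAs also started most often with A, at 37.3% ± 1.41, but had more G, at 33.5% ± 1.82, than C, at 29.2% ± 0.412. By reads, C was thus higher and G lower with 10A, by more than the spread. With each sequence counted once the direction for C turned: C was then 33.8% ± 0.415 with 10A and 35.4% ± 0.0575 without, and G was 25.8% ± 0.447 and 27.8% ± 0.634.

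The reads were concentrated on few 5′ ends. Replicate 1 had 27913 distinct 5′ ends, and 105 of them were enough for 50% of the non-U 10A reads. Replicate 2 had 34426, of which 90 were enough. The same share of reads took 578 and 472 of 50659 and 63319 5′ ends in non-U non-10A RNAs. In U-starting 10A RNAs it took 1243 and 1054 of 95583 and 113427. The 10 sequences printed above stand for 5′ ends that held 23.5% and 24.1% of the non-U 10A reads. The top 10 held 20.2% and 20.7% in non-U non-10A RNAs and 6.32% and 7.49% in U-starting 10A RNAs. The top 5′ end alone held more in non-U non-10A RNAs, at 5.36% and 6.00% against 4.49% and 3.79%. High shares on the top 5′ ends were thus not particular to non-U 10A RNAs. The 100 most abundant non-U 10A 5′ ends held 49.5% and 51.0%. Of these 100, 45 started with A, 28 with C and 27 with G. Values weighted by reads therefore describe mainly these 5′ ends, and for composition, last bases, neighbours and complementarity values with each 5′ end or sequence counted once are also given.

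The most abundant 5′ end matched an annotated microRNA gene. Non-U 10A 1 matched the hairpin of Mir468 exactly, on the minus strand at chr6:81896599-81896676 of GRCm38.p6, as annotated by RefSeq. For this match it is called the Mir468 RNA below. No genome was searched, so whether its sequence also occurs at other loci was not tested. The hairpin is shown because the whole non-U 10A RNA, in capitals, can be read inside it.
Mir468 hairpin: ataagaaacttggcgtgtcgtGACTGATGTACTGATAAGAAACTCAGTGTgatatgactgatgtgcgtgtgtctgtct
mmu-miR-468-5p: gacugauguacugauaagaaacucagu

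The 29-nt RNA matches chr6:81896627-81896655, starting 21 nt into the hairpin. The mature microRNA annotated by RefSeq, mmu-miR-468-5p, is 27 nt long, at chr6:81896629-81896655, and starts at the same base, so the non-U 10A RNA extends past its 3′ end. No RefSeq gene other than Mir468 overlapped the hairpin. Measured from the 29-nt RNA, the nearest were Mir7232, a microRNA gene 964 bp away, the lncRNA gene 1700009C05Rik at 3810 bp and the protein-coding gene Gcfc2 at 13907 bp. MicroRNAs are normally cut out of hairpins and loaded into Argonaute proteins of the AGO clade, not the PIWI clade.

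In the libraries, reads matching the Mir468 hairpin were mostly of piRNA length and came mostly from 1 start. Of 7176 and 8820 reads of 18 nt or more that started within the hairpin, 90.9% and 90.4% started where non-U 10A 1 starts. The annotated 27-nt length had 111 and 179 reads, against 2832 and 3043 for the 29-nt form and 1483 and 1864 for the 30-nt form that matches the hairpin. The length of the annotated microRNA was thus far below the longer forms in both libraries. No read matched the opposite strand of the hairpin, which allows up to 0.635 and 0.474 reads per 1000000 there, counting 3 reads as the limit for a count of 0. Hairpin matches in all were 27 non-U 10A sequences and 3.77% ± 0.487 of non-U 10A reads, nearly all on Mir468, after a search of 1005 RefSeq hairpins. The share was 0.0284% ± 0.00487 in non-U non-10A RNAs and 0.179% ± 0.0157 in U-starting 10A RNAs.

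The 3′ ends of the Mir468 RNA can be read against its hairpin. Reads of 26 to 33 nt at this 5′ end numbered 6452 and 7848. Of these, 72.4% and 67.9% matched the hairpin throughout, and 24.8% and 28.96% differed from it at the last base alone. That last base was U in 16.9% and 19.4% of reads, C in 6.08% and 8.55%, A in 0.868% and 0.777%, and G in 0.899% and 0.217%. The forms below show it, with capitals marking the last base where it differs from the hairpin.
29 nt, matching: gactgatgtactgataagaaactcagtgt
29 nt, C end: gactgatgtactgataagaaactcagtgC
30 nt, matching: gactgatgtactgataagaaactcagtgtg
30 nt, U end: gactgatgtactgataagaaactcagtgtT
31 nt, matching: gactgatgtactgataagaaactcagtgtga
31 nt, U end: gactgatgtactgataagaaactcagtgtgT

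The 31-nt form that ends in U had 695 and 921 reads, while the 31-nt form that matches the hairpin had 20 and 23. At 30 nt the order was the other way: the matching form had 1483 and 1864 reads and the form with a U end 398 and 602. The 29-nt form with a C end had 292 and 436 reads, against 2832 and 3043 for the matching form. The hairpin was read in the reference genome only, so a base that differs from it was not compared with the genome of these mice.

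Other abundant non-U 10A RNAs showed the same kind of last-base variation, without a reference to read it against. Non-U 10A 5 ended in G in its commonest form, with 1553 and 1629 reads, and in U in the next, with 975 and 1166 reads.
30 nt, G end: AttcaacacAcacttgttggtaacctctgg
30 nt, U end: AttcaacacAcacttgttggtaacctctgt

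Non-U 10A 3 and 9 were nearly uniform by comparison. The commonest sequence of non-U 10A 3, which ends in C, held 90.3% and 88.0% of its reads, and the form that ends in U held 5.78% and 8.76%. For non-U 10A 9 these shares were 89.0% and 86.2%, and 5.03% and 9.18%. Both of these RNAs end in agagc at 31 nt, and in both the form with U in place of the last C was commoner in replicate 2.

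Over all non-U 10A reads, 11.3% ± 1.30 were of sequences outnumbered by another non-U 10A sequence that differed from them at the last base alone. At the position 5 bases before the last, the same measure gave 0.147% ± 0.00182. Of the differing last bases, 49.2% and 43.9% were U and 27.0% and 38.5% were C. The last-base share was 9.23% ± 1.13 in non-U non-10A RNAs, 11.9% ± 1.31 in U-starting 10A RNAs and 12.5% ± 1.53 in the remaining U-starting RNAs. Replicate 2 was higher in each class. Within a library, non-U 10A RNAs lay below U-starting 10A RNAs by a small and steady margin, a difference of -0.659 points in replicate 1 and -0.673 in replicate 2, and above non-U non-10A RNAs by 1.91 and 2.15 points. The measure was chosen after the data were seen, as were the hairpin forms above.

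The commonest last base of non-U 10A reads was U, at 44.0% ± 0.804, followed by C at 29.2% ± 1.56, G at 16.4% ± 1.40 and A at 10.4% ± 0.964. Non-U non-10A RNAs ended more often in U, at 49.1% ± 0.828, and less often in C, at 23.1% ± 1.40. By sequence, U was at 45.1% ± 0.641 in non-U 10A RNAs and 46.7% ± 0.570 in non-U non-10A RNAs, and C at 25.5% ± 1.45 and 25.5% ± 1.51, so the difference in C was seen by reads only. In each library, 133 and 177 non-U 10A 5′ ends reached 100 reads. On the median one of these, 63.3% and 68.3% of reads had the commonest length. This was 65.8% ± 3.52 on average, against 71.0% ± 0.299 in non-U non-10A RNAs and 67.3% ± 1.13 in U-starting 10A RNAs. Within a library, the difference from U-starting 10A RNAs was -3.18 points in replicate 1 and 0.21 in replicate 2, so its sign was not the same in both.

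By length, 43.6% ± 0.415 of non-U 10A reads were 30 nt, 33.3% ± 0.468 were 31 nt and 23.2% ± 0.0531 were 29 nt. Non-U non-10A RNAs were at 41.6% ± 0.581, 34.7% ± 0.0769 and 23.6% ± 0.505. U-starting 10A RNAs had fewer of 31 nt, at 29.1% ± 0.0637, and U-starting RNAs without the A had 29.6% ± 0.257. Non-U RNAs of both kinds thus held more 31-nt reads than U-starting RNAs, by several times the spread. With each sequence counted once the gap was smaller, at 33.5% ± 0.0607 of 31 nt in non-U 10A RNAs and 31.4% ± 0.0636 in U-starting 10A RNAs.

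G at position 2 was lower in non-U 10A RNAs than in U-starting RNAs however the RNAs were counted. With each 5′ end counted once, G stood at position 2 in 12.3% ± 0.523 of non-U 10A RNAs and 12.2% ± 0.180 of non-U non-10A RNAs. In U-starting RNAs it was 24.8% ± 0.372 with 10A and 23.7% ± 0.375 without. A at position 2 ran the other way, at 40.2% ± 0.207 in non-U 10A RNAs and 32.9% ± 0.198 in U-starting 10A RNAs. With 5′ ends counted once, low G at position 2 therefore went with the missing 5′ U, whether or not A stood at position 10. By reads, G at position 2 was 9.64% ± 0.480 in non-U 10A RNAs and 22.4% ± 0.342 in U-starting 10A RNAs.

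The second base depended on the first. G followed a first A in 19.0% ± 0.715 of non-U 10A 5′ ends, a first G in 10.7% ± 0.356 and a first C in 5.72% ± 0.467. Non-U non-10A RNAs had the same order, at 19.1% ± 0.166, 10.3% ± 0.170 and 6.58% ± 0.369. By reads, 51.5% ± 0.358 of C-starting non-U 10A RNAs had U next and 58.6% ± 1.09 of G-starting ones had A next. Non-U 10A 1 to 4 all have one of these pairs. With each 5′ end counted once, U after C was lower, at 35.2% ± 0.279, and A after G was at 43.1% ± 0.105, against 43.5% ± 0.241 in non-U non-10A RNAs. The high read values therefore rest on abundant 5′ ends. This split by first base was chosen after the data were seen.

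At position 5, G was nearly alike in all classes with each 5′ end counted once and not by reads. The other bases were not all alike: C was higher and U lower in both non-U classes than in U-starting RNAs, beyond the spread. With 5′ ends counted once, G was at 11.5% ± 0.0809 in non-U 10A RNAs and between 11.2% and 11.8% in the other classes. By reads it was 13.4% ± 0.139 in non-U 10A RNAs, 8.63% ± 0.130 in non-U non-10A RNAs and 8.59% ± 0.198 in U-starting 10A RNAs. A at this position was 40.6% ± 0.157 of non-U 10A 5′ ends and 43.01% ± 0.460 of reads. At position 3, C made up 42.2% ± 0.0480 of non-U 10A reads but 26.5% ± 0.445 of their 5′ ends, while non-U non-10A RNAs had 30.01% ± 1.01 and 27.9% ± 0.108. U-starting 10A RNAs had 22.6% ± 0.398 by reads, so by reads this gap was wider than that of G at position 2. The excess of C there was therefore carried by abundant 5′ ends, and non-U 10A 1, 2, 3, 4, 6, 8 and 9 all have it.

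Around position 10, U was low just before the A with each 5′ end counted once. In this count, position 9 held U in 26.03% ± 0.114 of non-U 10A RNAs and 36.7% ± 0.178 of non-U non-10A RNAs. U-starting RNAs split the same way, at 23.9% ± 0.0412 with 10A and 35.6% ± 0.108 without. At position 11, U was 26.1% ± 0.0790 in non-U 10A RNAs and 32.4% ± 0.165 in non-U non-10A RNAs. In U-starting RNAs it was 25.9% ± 0.0459 with 10A and 32.8% ± 0.0312 without. A at position 12 was 33.8% ± 0.131 in non-U 10A RNAs and 27.3% ± 0.0486 in non-U non-10A RNAs, against 31.3% ± 0.325 and 25.8% ± 0.159 in U-starting RNAs. In this count, the difference that went with 10A was larger than the one that went with the first base. The latter was also beyond the spread. For U at position 11 the first-base difference was small and had opposite signs with and without 10A. By reads, U at position 9 was 32.9% ± 0.874 in non-U 10A RNAs and 34.1% ± 0.455 in non-U non-10A RNAs. In U-starting RNAs it was 24.8% ± 0.596 with 10A and 36.2% ± 0.111 without. The order of the differences at position 9 thus did not hold by reads among non-U RNAs.

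The same bases were counted around every other A of the non-U 10A RNAs, a comparison added after the data were seen. At positions 13 to 24, U stood before an A in 19.99% ± 0.0296 of cases and after it in 22.7% ± 0.0750, and A stood 2 bases after an A in 31.2% ± 0.286. U beside an A was therefore low along the RNA and lower there than beside position 10. A at position 12 was above the value 2 bases after other A by 33.8% against 31.2%.

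If a non-U 10A RNA was set by a U-starting piRNA, its first 10 nt would be the reverse complement of the first 10 nt of that piRNA. Partners were sought among the U-starting 5′ ends with at least 100 reads in the same library, 6313 and 9061 in number. Their first 10 nt made 5943 and 8385 distinct words, of 262144 possible words that start with U. Such a match was found for 14.9% of non-U 10A reads in replicate 1 and 17.0% in replicate 2, or 15.98% ± 1.50. For comparison, the 10-nt windows that end in an A further along the RNA, which would give overlaps of 11 to 25 nt, were searched in the same way, each as a share of the reads with that A. Their median was 4.79% and 6.49%, with a range of 1.89% to 11.5% in replicate 1 and 3.45% to 12.7% in replicate 2. The 10-nt overlap was thus the highest in both libraries, at 3.12 and 2.63 times the median.

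A 10-nt match can arise without a shared locus, and the windows differ in base composition, so these shares are not counts of ping-pong pairs. With each sequence counted once, the 10-nt overlap gave 7.53% and 9.65%, against at most 5.34% and 7.08% at the other overlaps. The ratio to the median was then 1.74 and 1.59. The share by reads also followed the partner minimum, at 37.7% with 20 reads and 4.89% with 500 reads, where the ratio was 2.24 and 10.8. U-starting 10A RNAs also had their reads' highest value in replicate 1 at 10 nt, with 9.85%, against a median of 3.97% and at most 5.96% at other overlaps. In replicate 2 they had 11.4% at 10 nt, a median of 5.67% and up to 13.4% elsewhere. By sequence, 10 nt was their highest in both libraries, at 6.15% and 7.80% against at most 4.48% and 6.83%. A highest value at 10 nt was therefore not confined to non-U 10A RNAs.

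Abundant 5′ ends set much of the profile by reads. The second highest overlap, 22 nt with 12.1% ± 0.891, came mostly from non-U 10A 3, which alone gave 9.02 and 9.84 points of the reads with an A at position 22. Its matching window is in capitals here.
Non-U 10A 3, 22-nt overlap: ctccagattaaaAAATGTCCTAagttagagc

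At 10 nt, the Mir468 RNA alone counted for a large part, since a U-starting partner matched its first 10 nt. Without this 5′ end the 10-nt overlap held 10.9% and 13.8% of non-U 10A reads. The highest other overlap was then 11.5% and 12.7%, so in replicate 1 the 10-nt overlap was no longer the highest by reads. With each sequence counted once it stayed the highest, at 7.35% and 9.48% against at most 5.34% and 7.08%. This check was chosen after the data were seen.

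By first base, A-starting RNAs had 17.6% and 23.2% of reads at the 10-nt overlap, above their highest other overlap of 11.8% and 14.5%. G-starting RNAs had 20.5% and 18.2%, but 5.27% and 5.70% without the Mir468 RNA, below their highest other overlap of 6.62% and 12.8%. C-starting RNAs had 7.13% and 8.29%, with a median of 3.83% and 5.88% at other overlaps and a highest value of 33.3% and 37.0%. Without non-U 10A 3 they had 7.83% and 9.26% at 10 nt and a highest other value of 24.6% and 24.1%. By reads, the 10-nt overlap was thus the highest in A-starting RNAs in both libraries, and in neither library for C-starting RNAs without non-U 10A 3 or for G-starting RNAs without Mir468. By sequence, and with non-U 10A 3 left out, C-starting RNAs had their highest value at 10 nt, 7.18% and 9.24% against at most 5.81% and 7.95%. G-starting RNAs without Mir468, counted in the same way, had 4.96% and 6.33% against up to 5.16% and 7.53%. Leaving out non-U 10A 3 was chosen after the data were seen. No 5′ end was left out of the A-starting RNAs, and they were not counted by sequence, so the first bases are not on equal terms.

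The 3 most abundant non-U 10A 5′ ends with a U-starting partner are printed with it, the complementary first 10 nt in capitals. Here a partner had at least 100 reads in each library.
Pair 1, non-U 10A: GACTGATGTActgataagaaactcagtgt
Pair 1, U-starting: TACATCAGTCtctgtaagccaatgagcagt
Pair 2, non-U 10A: AACACATGGActagaaattaaaccaaagt
Pair 2, U-starting: TCCATGTGTTgggattgtctggtcttgtt
Pair 3, non-U 10A: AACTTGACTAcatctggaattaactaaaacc
Pair 3, U-starting: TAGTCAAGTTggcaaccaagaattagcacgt

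In pair 1, the Mir468 RNA at 1229 ± 85.7 per 1000000 stood against a partner at 43.8 ± 3.08, with 217 and 263 reads. Beyond its first 10 nt, this partner matched the opposite strand of the Mir468 hairpin at 8 of 20 bases, so it is not a read of that strand. In pair 2, the non-U 10A RNA was at 323 ± 0.529 and its partner at 378 ± 32.3 per 1000000, close to each other. In pair 3 the partner was the more abundant, at 1416 ± 35.7 against 238 ± 50.6 per 1000000. The 3 pairs thus showed no common order of abundance. Whether pairs 2 and 3 come from opposite strands of 1 locus was not tested, since no genome was used here. Of the 100 most abundant non-U 10A 5′ ends, 22 had a partner, and of the 10 most abundant only non-U 10A 1 did. No such count was made for the other classes.

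Non-U RNAs may also start a few bases away from a more abundant U-starting piRNA of the same strand. Such a neighbour within 10 nt, found by an exact overlap of 20 nt, was present for 33.1% and 33.8% of non-U 10A reads, or 33.4% ± 0.493. A neighbour 9 nt downstream cannot occur, because it would begin with the A at position 10. With that distance left out, a step added after the data were seen, a neighbour was present for 42.9% ± 0.220 of non-U non-10A reads (43.9% ± 0.181 with it). Non-U 10A RNAs thus had neighbours less often by more than the spread, and by sequence the shares were 57.9% ± 0.988 and 66.5% ± 0.737. A neighbour counts only where it has more reads than the RNA itself, so the share is lower in abundant RNAs by construction. Without the 100 most abundant 5′ ends of each class it was 57.6% by reads. Of the 100 most abundant 5′ ends, 15 had one, and of the 10 most abundant only non-U 10A 7.

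By reads, the commonest distances were 1 nt to either side. A neighbour starting 1 nt upstream was found for 7.65% ± 0.144 of reads and 1 nt downstream for 6.94% ± 0.282, while 10 nt upstream gave 2.45% ± 0.00253 and 10 nt downstream 2.28% ± 0.0294. A second rise lay 5 nt downstream, at 6.24% ± 0.00439, above both 4 nt, at 4.24% ± 0.0981, and 6 nt, at 5.001% ± 0.0717. Counted by sequence, 5 nt downstream was the commonest distance, at 12.2% ± 0.196, before 1 nt upstream, at 11.9% ± 0.133, in both libraries. Non-U non-10A reads showed no such rise, with 6.66% ± 0.0128 at 4 nt, 6.40% ± 0.0216 at 5 nt and 6.12% ± 0.0388 at 6 nt. With a neighbour 5 nt downstream, position 10 is base 5 of the neighbour. A stands there in 45.2% ± 0.0511 of U-starting 10A reads and 48.5% ± 0.0275 of the other U-starting reads. The rule requires this A in non-U 10A RNAs and forbids it in non-U non-10A RNAs, so the classes are not on equal terms at 5 nt. The part of this in the rise was not tested. At 1 nt upstream, non-U non-10A reads had 10.9% ± 0.0268, above the non-U 10A reads.

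The 3 most abundant non-U 10A 5′ ends with such a neighbour are shown with it, the bases they share in capitals.
Neighbours 1, non-U 10A: AGGATCTTCATAGTTCATGAACAGGTATGT
Neighbours 1, U-starting: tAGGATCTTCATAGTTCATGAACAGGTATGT
Neighbours 2, non-U 10A: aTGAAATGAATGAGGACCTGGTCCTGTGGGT
Neighbours 2, U-starting: TGAAATGAATGAGGACCTGGTCCTGTGGGT
Neighbours 3, non-U 10A: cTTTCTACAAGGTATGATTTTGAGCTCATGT
Neighbours 3, U-starting: TTTCTACAAGGTATGATTTTGAGCTCATGT

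In each of these, the RNAs share their 3′ end and differ by 1 base at the 5′ end. Non-U 10A 7, the first of them, was at 494 ± 96.6 and its neighbour at 695 ± 106 per 1000000. The second was at 264 ± 104 with its neighbour at 303 ± 122, and both of that pair were about as uneven between libraries. The third was at 86.5 ± 9.14 against 983 ± 225 per 1000000. The non-U form was thus close in abundance to the U-starting form in the first 2 and far below it in the third.

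A U-starting RNA with the same bases 2 to 20, a twin, was found for 51.3% and 52.4% of non-U 10A reads, counting twins of a single read or more. Twins of the 10 most abundant 5′ ends had 3 to 77 reads in a library, against 1431 to 7449 for those 5′ ends. The twin had more reads than the non-U 10A RNA for only 1.47% and 1.44% of non-U 10A reads. In non-U non-10A RNAs these shares were 42.2% ± 1.13 and 2.64% ± 0.0119. Few non-U 10A reads were therefore first-base variants of a more abundant U-starting RNA. By sequence, 12.2% ± 0.0244 had a twin and 4.34% ± 0.181 a twin with more reads, so among rarer sequences a larger twin was a much greater part of the twins. The same counts were 11.9% ± 0.424 and 6.22% ± 0.329 in non-U non-10A RNAs.

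The replicates were compared over the 312 non-U 10A sequences with 100 or more reads in total. Of these, 17 differed by 2-fold or more in reads per 1000000, which is 5.45%, against a background of 3.43% of 11317 sequences of 29 to 31 nt. Replicate 2 was higher in 12 and replicate 1 in 5, and the median log2 difference, replicate 2 minus replicate 1, was 0.21 for non-U 10A sequences and 0.18 for all. The 17 sequences fell on 15 5′ ends, and 3 of them, all higher in replicate 2, were 3′ variants of non-U 10A 4. The share was near the background and is a handful of sequences. The largest ratios each way were shown by these sequences, with capitals at positions 1 and 10.
Higher in replicate 2, a: GaccatttcActcagactgtaaccatgat
Higher in replicate 2, b: GaccatttcActcagactgtaaccatgacc
Higher in replicate 1, a: AaccaaattAtactcttttgatttccagac
Higher in replicate 1, b: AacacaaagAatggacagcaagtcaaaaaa

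The first had 25 and 114 reads in replicates 1 and 2, or 3.41-fold more in replicate 2 per 1000000, and the second 26 and 104 reads, or 2.99-fold more. Both start as non-U 10A 4 does, which itself had 737 and 1124 reads per 1000000. The sequences higher in replicate 1 had 85 and 48 reads, or 2.37-fold more, and 76 and 47 reads, or 2.16-fold more. No sequence of these 4 is among the most abundant.

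Few non-U 10A RNAs fell in the start regions of annotated genes. In windows from 250 bases before to 50 bases after the starts of 32851 RefSeq entries, 599 non-U 10A sequences matched, with 0.338% ± 0.00324 of the reads. Non-U non-10A RNAs had 0.325% ± 0.0127, U-starting 10A RNAs 0.450% ± 0.00545 and U-starting RNAs without that A 0.300% ± 0.00505. The reads matched the annotated strand alone in 187 and 226 cases and the opposite strand alone in 244 and 384, so neither strand was absent. The sequence with most reads, 21 and 35, matched over its first 29 nt opposite LOC108168693 at chr4:62231105-62231133.
Start-window match: CaaagattcAaaagtgcgtgaagactcatt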

How the data were processed

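PIWIL1-bound small RNAs were analysed from 2 libraries, grouped by the labels' titles. The authors deposited counts of reads: each row of the table is a distinct 50-nt read, with its count in both replicates. Bowtie, STAR and mm10 are named in the submitters' processing notes, with settings and roles not given in the sources used here. No use was made of the deposited RNA-seq table.

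Inserts were the bases before an exact match to the first 10 nt of the 3′ adapter, found as the commonest 10-nt word of the reads. Identical inserts were summed. An insert of 1 nt or more was found in 97.6% and 98.7% of reads. Reads with no adapter match were 1.95% and 1.27%, and reads that began with the adapter 0.409% and 0.0651%. Exact trimming misses reads with an error in the adapter, and an error at position 1 or 10 can move a read between classes. A single member sequence with an undetermined base was left out of sequence comparisons. Work was done in Python 3.11.15 with numpy 2.4.6, pandas 2.3.3 and scipy 1.17.1, and the trimming, neighbour and complementarity steps were tested on simulated data. Intervals are exact (Clopper-Pearson) at 95%.

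The members, measures and naming rule were chosen with earlier results of these data known. Sequences named are the 10 most abundant 5′ ends, the 3 most abundant for each first base, the 2 with the largest ratio each way between libraries, and the 3 most abundant with a complementary U-starting partner or a more abundant U-starting neighbour. The 2 libraries form 1 group, so no test was run, and classes are compared within the same libraries by the size of the difference and its spread. Alternatives were other adapter matches, counting each sequence once, sequences seen in both libraries, leaving out abundant 5′ ends or a replicate, other lengths, and other minimums and overlaps. No genome was used here, so positions are given only for exact matches to RefSeq miRNA hairpins and start regions of GRCm38.p6.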

Additional observations from a re-analysis of the deposited data

How the results depend on the processing

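Under the alternatives run, none of the values below changed sign. Outside them, the order of C between classes turned with each sequence counted once, and without the Mir468 5′ end the 10-nt overlap was not the highest by reads in replicate 1, both given above. Counting each sequence once gave a share of 5.42% of RNAs of 29 to 31 nt, a 10A excess of 7.58 percentage points over U-starting RNAs (12.9 by reads), 40.4% with first base A, 42.4% of 30 nt, G at position 2 in 11.5% (12.4 points below U-starting RNAs, as a difference of -12.4), neighbours for 57.9%, and 10-nt complementarity for 8.59%, 1.66 times the median overlap. With only sequences seen in both libraries these values were 3.66%, 15.1 points, 30-nt share 44.1%, G 8.97% (difference -12.9), neighbours 26.1% (difference from non-U non-10A RNAs -7.54 points, which includes the distance of 9 nt that the rule forbids), complementarity 17.9% and ratio 3.51. Without the 100 most abundant 5′ ends of each class they were 2.40%, 9.58 points, first base A 38.4%, 30 nt 44.8%, G 10.3% (difference -12.4), neighbours 57.6% (-8.36), complementarity 10.0% and ratio 1.97. Lengths of 26 to 33 nt gave 4.14%, 12.2 points, a G difference of -13.03, neighbours 34.4% and -11.4 points. Partner minimums of 20 and 500 reads gave complementarity of 37.7% (ratio 2.24) and 4.89% (ratio 10.8). Overlaps of 16 and 24 nt gave neighbours of 33.96% and 29.8% (-8.66). Adapter matches of 8 and 12 nt left the G difference at -12.6 each. With 9 nt downstream left out, added after the data were seen, the neighbour difference was -9.49 points, against -10.4 with it. Leaving out the Mir468 5′ end, also added after the data were seen, gave 3.87%, 11.9 points, first base A 40.9%, a G difference of -12.2, neighbours 34.9% (-8.99), complementarity 12.4% and ratio 2.09.

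With replicate 1 or 2 left out, values ranged from 3.998 to 4.05% for the share, 12.8 to 12.98 points for 10A, 38.7 to 39.7% for first base A, 43.3 to 43.9% for 30 nt, 9.30 to 9.98% for G at position 2, -12.59 to -12.58 points for its difference, 33.1 to 33.8% for neighbours, -10.9 to -9.95 points for their difference, 14.9 to 17.04% for complementarity, 2.63 to 3.12 for its ratio and 63.3 to 68.3% for the commonest length. Differences between classes are taken within each library; sample groups could not be paired because there is only 1.

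The 2 libraries limit every spread given here. Complementarity depends most on the choices made, above all on the partner minimum and on a few abundant 5′ ends. Its 10-nt matches were not placed in a genome. Single-read sequences, most of the distinct ones, can hold sequencing errors, which were not tested.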
